A study of Caenorhabditis elegans with 2 samples.

Results

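A ChIP-seq experiment on the nuclear hormone receptor NHR-11 of Caenorhabditis elegans gave 13558 regions in the list pooled over the replicates. Of these, 1979 were weaker replicated peaks in promoters. That list was deposited as peaks and background together, so a peak here means a listed region and not a proven binding site. A region was taken when its pooled signal fell below the lowest signal of the authors' thresholded list, when its interval held a summit of both replicates' own lists, and when its summit lay from 1000 bp upstream to 200 bp downstream of the start of a protein-coding gene. The regions were chosen by these measured values, so signal, presence in both replicates and the distance limits are described and not tested. In this assay, DNA bound by a protein is pulled down with it and sequenced. Whole L4 larvae, the last larval stage, of pooled males and females were used in 1 group with 2 biological replicates, and no condition was compared. All animals were of strain OP305, which carries the unc-119(ed3) mutation on chromosome III and the transgene wgIs305 for eGFP-tagged NHR-11. What drives the transgene, and in which cells, was not given in the sources used here, and no input or untagged sample was used here. Signal in whole animals cannot separate a few cells with strong binding from many with weak binding.

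Nuclear hormone receptors are transcription factors with a zinc finger DNA-binding domain, and many of them have a domain that can bind small lipophilic molecules. The worm genome holds a greatly expanded family of them, several of which act in fat metabolism, moulting and larval development. Many classical receptors bind the core site AGGTCA or repeats of it, and promoters of the worm also carry GAGA repeats, initiator elements, T blocks and TATA boxes.

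The sequences of 5 peaks show what the summits look like. They are the strongest peak and the strongest peak that held each of the 5 motifs whose share was highest relative to all promoters. Each is read from the plus strand of build ce11 and reaches 50 bases to either side of the pooled summit, and C15H9.2 was the strongest for both of its motifs. Capitals mark GAGA repeats (GAGAGA or longer), the element CTGCGTC, the CA repeat ACACACAC and the E-box CAGCTG, each on either strand. The first lies upstream of C33A12.4 (WBGene00007883) at chrIV:9510685-9510785 and holds none of them. The second lies just inside the start of pcm-1 (WBGene00003954), a protein repair methyltransferase, at chrV:5963786-5963886. The third lies upstream of C15H9.2 (WBGene00015798) at chrX:6118204-6118304. The fourth is upstream of osm-5 (WBGene00003885), an intraflagellar transport protein of cilia, at chrX:2984089-2984189. The last is upstream of sax-2 (WBGene00004728), a Furry family protein of neurons, at chrIII:5108881-5108981.
C33A12.4: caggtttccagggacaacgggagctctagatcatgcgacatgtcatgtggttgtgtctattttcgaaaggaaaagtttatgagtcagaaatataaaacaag
pcm-1: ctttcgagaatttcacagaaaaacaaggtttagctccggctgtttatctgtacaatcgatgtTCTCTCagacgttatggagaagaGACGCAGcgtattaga
C15H9.2: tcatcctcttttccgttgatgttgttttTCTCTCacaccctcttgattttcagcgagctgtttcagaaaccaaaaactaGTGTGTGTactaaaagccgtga
osm-5: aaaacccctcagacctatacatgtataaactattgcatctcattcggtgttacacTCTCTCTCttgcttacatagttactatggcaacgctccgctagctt
sax-2: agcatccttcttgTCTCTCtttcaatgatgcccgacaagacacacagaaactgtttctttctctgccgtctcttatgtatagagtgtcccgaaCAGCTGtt
Their replicate signals, in the authors' score units, were 20.97 and 39.4 at C33A12.4, 23.1 and 30.3 at pcm-1, 22.03 and 29.2 at C15H9.2, 25.1 and 30.3 at osm-5, and 16.2 and 35.6 at sax-2, with replicate 1 given first. Relative to the length of the lists, all 5 ranked higher in replicate 2 than in replicate 1.

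The pooled list held 2719 thresholded regions and 10839 below them, of which 6064 held summits of both replicates and 4775 did not. The replicate lists held 19074 and 22137 regions. Without read counts in these lists, library depth is unknown, and the 95% Clopper-Pearson intervals below cover the counting of regions or genes only. Neighbouring regions and genes are not independent.

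Of the weaker regions found in both replicates, 1979 of 6064 had their summit in a promoter window, which is 32.6% (31.5% to 33.8%). The share was 47.8% (45.9% to 49.7%) of the thresholded regions, 1300 in number. Among weaker regions without both summits it was 27.4% (26.1% to 28.7%), or 1308 of 4775. Promoter windows cover 21.5% of the genome. Weaker replicated peaks thus lay between the thresholded and the non-replicated ones in this share, and the intervals of the 3 sets did not overlap. Median pooled signal of the promoter peaks had the same order, with 86.9 in the thresholded, 34.7 in the members and 24.7 in the non-replicated. The part of signal in this order, and in the like orders below, was not tested.

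The members' pooled signal ran from 21.7 to 54.9 with a median of 34.7. Their signal in replicate 1 ran from 10.6 to 92.8 with a median of 17.2, and in replicate 2 from 9.14 to 63.5 with a median of 16.7. By rank their medians were 6520 of 19074 in replicate 1 and 6791 of 22137 in replicate 2, where 1 is the strongest. In 1707 of them (86.3%) the peak was outside the 2719 strongest of either replicate, 7.58% were inside only in replicate 1, 5.66% only in replicate 2 and 0.505% in both. The deposited −log10 q of the pooled list had a median of 0.633, an upper quartile of 1.13 and a maximum of 2.09 in the members. In the thresholded promoter peaks its lowest value was 2.07. Every member's interval was 376 bp wide.

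At the upper edge, just inside the threshold, lay the peaks of C33A12.4 with a pooled signal of 54.87, C01G12.7 with 54.86 and dnbp-1 with 54.83. Just outside it lay the thresholded promoter peaks of C14A11.2 with 54.89, lin-17, a Frizzled receptor for Wnt, also with 54.89, and lec-2, a galectin, with 54.91. In the replicates, C01G12.7 had 31.0 and 29.8, and C14A11.2 on the other side of the threshold had 28.1 and 28.1. The peak of lin-17 had 15.2 in replicate 1 and 39.1 in replicate 2. The values on both sides of the threshold overlapped in each replicate. At the lower edge were trip-4 with a pooled signal of 21.65, C34H4.1 with 21.68 and dyf-11, a ciliary transport protein, with 21.76.

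The 2 replicates placed their summits less tightly in the weaker peaks than in the thresholded promoter peaks. The median distance between the summits of the replicates was 44 bp (41 to 48) in the members and 22 bp (21 to 24) in the 1293 thresholded promoter peaks with both summits. The summits were within 50 bp of each other in 53.8% (51.6% to 56.0%) of the members and in 77.8% (75.4% to 80.04%) of those thresholded peaks.

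Some members stood beside a stronger peak. In 56 members (2.83%) the interval overlapped a thresholded interval, and in 29 (1.47%) a replicate's summit was nearer to a thresholded summit than to the member's own. Replicate 1 signal had a median of 24.7 in these 56 and of 17.1 in the other 1923, replicate 2 signal of 19.2 and 16.6, and pooled signal of 34.1 and 34.7. All 5 members that ranked highest in replicate 1 relative to replicate 2 were of this kind, each with a thresholded summit 199 to 208 bp away. The peak of plin-1, the perilipin of worm lipid droplets, had 92.8 in replicate 1 and 16.4 in replicate 2. The peak near C28G1.2 and sec-15, an exocyst subunit, had 84.6 and 15.9, and that of tag-294 had 68.7 and 12.5. The peak of btbd-10 and sgt-1, a co-chaperone, had 64.4 and 9.81, and that of eat-6, the sodium pump, had 50.5 and 10.9. In all 5 of these the summit of replicate 1 was nearer to the thresholded summit than to the member's own. The summit of replicate 1 was shared with another member in 30 members, and that of replicate 2 in 32.

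The 5 members that ranked highest in replicate 2 relative to replicate 1 stood alone, with the nearest thresholded summit 672 bp to 85414 bp away. The peak of mcm-4, a subunit of the replicative helicase, had 11.99 in replicate 1 and 40.7 in replicate 2. The peak of tank-1, a tankyrase, had 11.1 and 36.8, and that between mtg-1 and snf-6 had 10.6 and 30.2. The peak of gstk-2, a glutathione transferase, had 11.3 and 30.5, and that of T24B8.3 had 12.4 and 34.8. In these 5, replicate 1 was near the lowest value of all members and replicate 2 was well above its median.

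**Figure D1:**
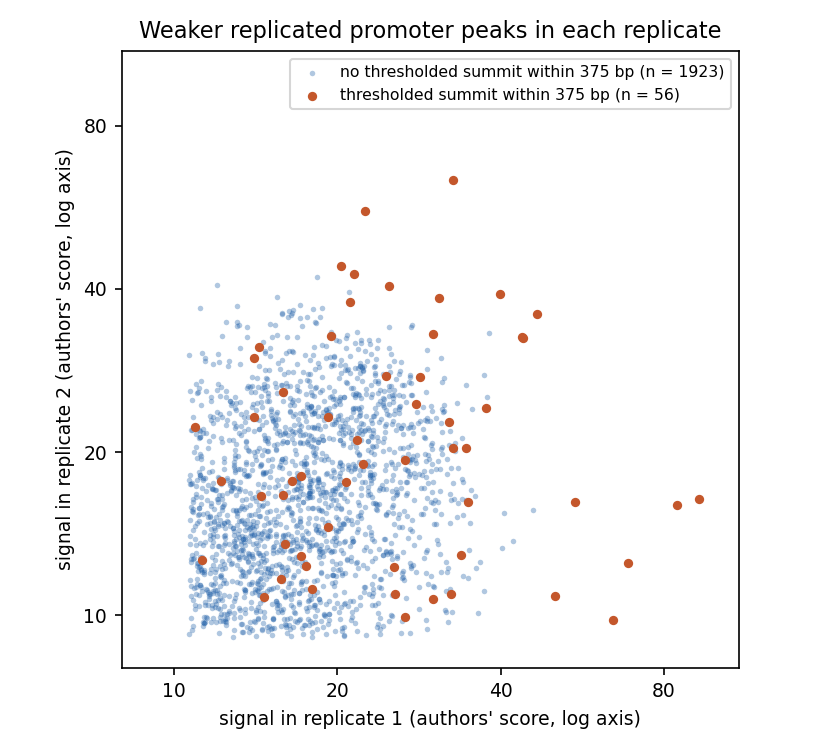
Signal of each of the 1979 weaker replicated promoter peaks in replicate 1 (x axis) and replicate 2 (y axis), in the authors' score units on log axes, with the 56 that have a thresholded summit within 375 bp in orange. The points farthest to the right, up to 92.8 in replicate 1, are orange.

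The 20 strongest members had pooled signals from 54.33 to 54.87 and lay at genes of varied kinds. Both replicates showed close values at nud-2, a dynein regulator, with 26.6 and 26.6, and at dnbp-1 with 24.9 and 26.5. The peak between tag-353 and cup-2, a derlin of the endoplasmic reticulum, had 29.3 and 30.9. The replicates were farther apart at atgp-1, the heavy chain of amino acid transporters, with 40.6 in replicate 1 and 15.4 in replicate 2. They were apart the other way at gbb-2, a GABA-B receptor subunit, with 17.1 and 37.3. The remaining members at the top included those of sul-1, a sulfatase, hil-7, a linker histone, tin-9.1, a mitochondrial import protein, and hpo-2. The peak between dyf-2, a ciliary transport protein, and cul-2, a cullin, had 23.5 and 28.9, and that between T07E3.3 and brc-2, a BRCA2 homologue in DNA repair, had 23.6 and 29.6. Others of the 20 lay at Y60A3A.21, C54G4.7, F13A7.14 and W04C9.6.

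The members gathered upstream of gene starts, less sharply than thresholded peaks. The median summit lay at −209 bp from the start (−222 to −192), against −222 bp (−236 to −205) for thresholded promoter peaks. For the non-replicated it was −246.5 bp (−271 to −215). These intervals overlapped, and here the members were not between the other sets. Within 500 bp upstream lay 61.5% (59.3% to 63.6%) of the members, 74.8% (72.4% to 77.2%) of the thresholded and 53.98% (51.2% to 56.7%) of the non-replicated promoter peaks. The densest stretch for the members was 100 to 200 bp upstream, with 355 of them (17.9%). At or downstream of the start lay 296 members (14.96%, 13.4% to 16.6%), against 6.46% of the thresholded. The non-replicated had 17.4% (15.4% to 19.6%) there, an interval that overlaps that of the members. The window itself was part of the choice, so these shares describe places inside it.

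**Figure D2:**
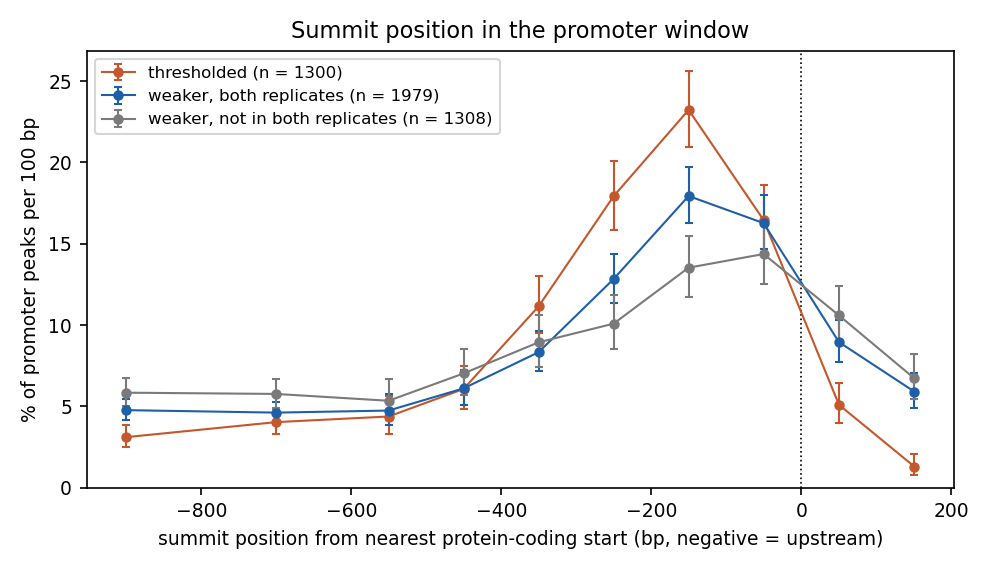
Share of promoter peaks per 100 bp (y axis) by summit position from the nearest protein-coding start (x axis, bp) for weaker replicated, thresholded and non-replicated peaks, with 95% Clopper-Pearson intervals. The weaker replicated peaks lie between the other sets at 100 to 200 bp upstream, where they hold 17.9%.

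Summits of 351 members (17.7%, 16.1% to 19.5%) lay in windows of genes on both strands, against 26.5% (24.2% to 29.0%) of thresholded and 13.1% (11.3% to 15.02%) of non-replicated promoter peaks. Outside every protein-coding gene were 74.0% of the members, 87.7% of the thresholded and 65.9% of the non-replicated. Inside some other gene than the one whose start was near were 10.9% of the members, 5.77% of the thresholded and 16.5% of the non-replicated. On each of these measures the members stood between the other sets, with intervals that did not overlap.

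Genes with a member in their window numbered 2285, which is 11.4% of the 19973 protein-coding genes. Genes with a thresholded peak in the window numbered 1654, or 8.28%. Both kinds were present at 122 genes, 5.34% of the first set and 7.38% of the second, and 107 genes had 2 members. No gene had more. The windows of nhr-11 itself and of unc-119 held no member, no thresholded peak and no non-replicated region. A thresholded summit lay within 1000 bp of 152 members (7.68%).

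Chromosomes differed in how the weaker and the thresholded peaks were shared out. Chromosome V held 433 members (21.9%) but 205 of the thresholded promoter peaks (15.8%). Per Mb of promoter window it had 80.6 members and 38.2 thresholded peaks, and chromosome I had 99.1 and 79.4. Members were densest on chromosome X, with 111.6 per Mb, and on chromosome III, with 106. The share of genes with a member ran only from 10.03% on chromosome IV to 13.6% on chromosome III, while the share with a thresholded peak ran from 5.41% on chromosome V to 11.3% on chromosome III.

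GC content at the summits was intermediate too. The median within 50 bp of the summit was 39.6% in the members, 46.5% in thresholded promoter peaks and 37.6% in non-replicated ones. In the flanks, 300 to 400 bp to either side of the members' summits, it was 34.7%, and in windows centred 200 bp upstream of all protein-coding starts it was 33.7%. All motif shares below are for windows within 50 bp of the summit, count both strands, and move with base composition.

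The repeat GAGAGA was present in 329 members, or 16.6% (15.01% to 18.3%). It was in 25.5% of thresholded, 11.2% of non-replicated promoter peaks, 5.91% of the flanks and 7.47% of all promoters. The longer GAGAGAGA, which contains the shorter one, was in 2.93% of the members, 5.23% of the thresholded and 1.18% of all promoters. CTGCGTC was in 108 members, or 5.46% (4.50% to 6.55%), against 11.5% (9.85% to 13.4%) of the thresholded, 3.59% of the non-replicated, 0.682% of the flanks and 1.56% of all promoters. Relative to all promoters, CTGCGTC had the highest ratio of the 22 motifs searched at 3.50, followed by ACACACAC at 3.02. CAGCTG was in 3.64% and CACGTG, the site of Myc-like factors, in 3.23% of the members, against 1.70% and 1.53% of all promoters.

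AT-rich elements went the other way. TATAAA was in 9.95% of the members, 3.77% of the thresholded and 13.1% of all promoters, and TTTTTTTT in 8.89%, 3.15% and 12.96%. The non-replicated had 9.48% and 8.41%, so for these motifs the members did not lie between the other sets of peaks. TGATAA, the site of intestinal GATA factors, was in 9.65% (8.39% to 11.04%) of the members and 5.15% of the thresholded. It was in 11.04% (10.6% to 11.5%) of all promoters, an interval that overlaps that of the members. The core site AGGTCA was in 61 members (3.08%, 2.37% to 3.94%). It was in 2.15% of the thresholded, 3.59% of the non-replicated, 2.68% of the flanks and 2.67% of all promoters, so the members' share was not apart from these. The longer AAGGTCA, which contains it, was in 0.556% (0.278% to 0.992%) of the members, 0.538% of the thresholded and 0.831% of all promoters. The non-replicated had AAGGTCA in 1.76% (1.12% to 2.63%), an interval above that of the members. The variant AGTTCA was in 5.20% of the members and 7.58% of all promoters. In contrast, AGTGCA, a core site of the receptor DAF-12, was in 5.20% (4.27% to 6.28%) of the members and 5.69% of the thresholded. All promoters had AGTGCA in 3.49% (3.24% to 3.75%), an interval below that of the members. The flanks had it in 3.82% (3.24% to 4.46%), an interval that overlaps that of the members. The part of GC content in the AGTGCA shares was not tested. A direct repeat of AGGTCA with any base between its copies was found in no window of any set.

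**Figure D3:**
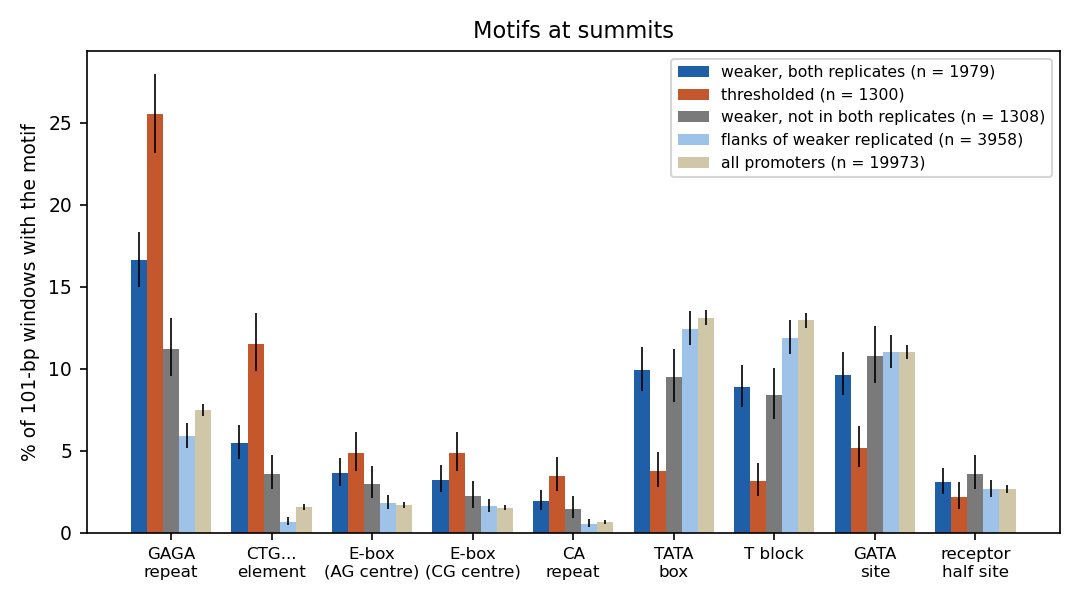
Share of windows within 50 bp of the summit that hold each of 9 motifs (y axis) in weaker replicated peaks, thresholded peaks, non-replicated peaks, flanks and all promoters, with 95% Clopper-Pearson intervals. For GAGAGA the bars are 16.6%, 25.5%, 11.2%, 5.91% and 7.47%, and for the TATA box the order of members, thresholded and all promoters is 9.95%, 3.77% and 13.1%.

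With windows limited to 35% to 45% GC the differences were smaller. GAGAGA was then in 16.5% (14.1% to 19.1%) of the members, 23.7% (19.8% to 28.03%) of the thresholded and 9.64% (8.93% to 10.4%) of all promoters. CTGCGTC was in 6.14% (4.65% to 7.94%), 9.07% (6.53% to 12.2%) and 2.43% (2.06% to 2.84%), so the intervals of members and thresholded overlapped. The shares of TATAAA, 7.51%, 5.81% and 8.29%, then overlapped in their intervals across all 3 sets.

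Some motifs differed between the members with weaker and stronger signal, which was used to choose them. In the weakest 660, the middle 659 and the strongest 660 by pooled signal, GAGAGA was in 13.3%, 15.02% and 21.5%, and CTGCGTC in 3.48%, 5.77% and 7.12%. TATAAA was in 11.8%, 11.4% and 6.67%. TTTTTTTT was in 10.5% (8.23% to 13.04%), 8.50% and 7.73% (5.81% to 10.03%), with overlapping intervals. Median GC content was 37.6%, 39.6% and 41.6% in the same order, and its part in these shares was not tested.

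GAGAGA and CTGCGTC, the motifs followed along the sequence, were most frequent at the summit itself. GAGAGA was in 16.6% of the members within 50 bp of the summit, in 11.1% and 11.3% in the next 100 bp to either side, and in 8.08% and 7.88% in the 100 bp beyond. CTGCGTC was in 5.46% at the summit, 2.48% and 2.27% next to it and 1.52% and 1.31% farther out. Thresholded promoter peaks had 25.5% and 11.5% at the summit and came down to 8.46% and 1.31% in the outermost window on the side of lower coordinates.

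**Figure D4:**
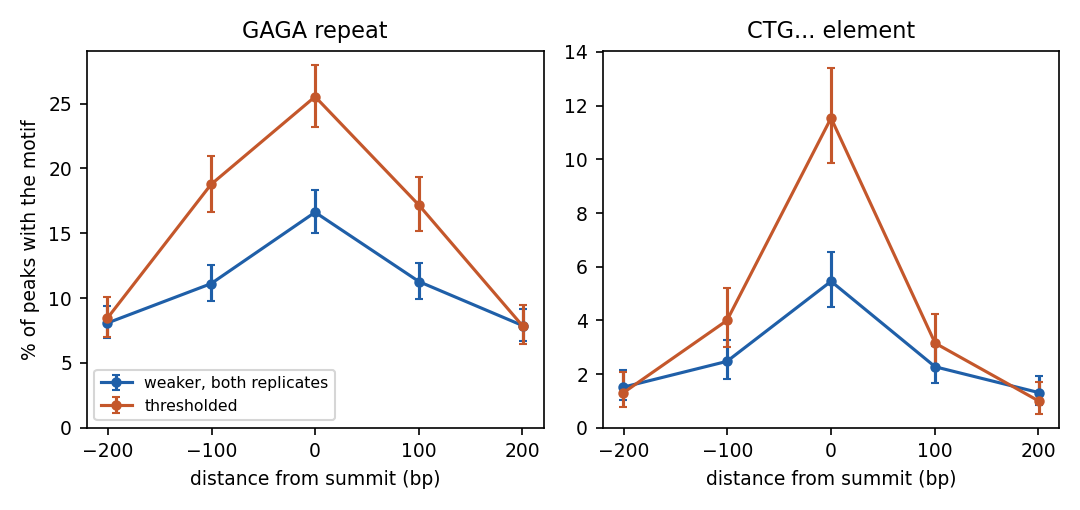
Share of peaks with GAGAGA (left) and with the CTGCGTC element (right) in adjoining windows at set distances from the summit along the plus strand (x axis, bp), for weaker replicated and thresholded promoter peaks, with 95% Clopper-Pearson intervals. Members peak at 16.6% and 5.46% at the summit and thresholded peaks at 25.5% and 11.5%.

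Genes that make proteins differed widely in which kind of peak they carried. Against 11.4% of all genes with a member, 13 of 32 aminoacyl-tRNA synthetase genes (40.6%, 23.7% to 59.4%) had one. These enzymes load tRNAs with amino acids. Of the 13 genes, kars-1 and mars-1 also had a thresholded peak, as did 5.34% of all genes with a member. The peak of aars-2 had signals of 15.02 in replicate 1 and 34.4 in replicate 2, that of rars-1 had 18.04 and 30.3, and that of ears-2 had 17.8 and 26.5. That of kars-1, 676 bp from a thresholded summit, had 30.1 and 11.3. By rank relative to the list, replicate 2 was the higher for the first 3 and replicate 1 for kars-1. The other 9 genes, chosen for naming after their values were seen, ran from iars-1 with a pooled signal of 44.7 to vars-1 with 27.8, and between them lay nars-1, fars-1, hars-1, aars-1, sars-2, mars-1 and cars-1. All 13 genes had their strongest member upstream of the start. With a window of 500 bp upstream to 100 bp downstream, 8 of them remained, and of all genes 1592 in place of 2285.

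Ribosomal protein genes mostly carried thresholded peaks, at 64 of 78 (82.1%), against 8.28% of all genes. A member lay at 8 of the 78 (10.3%, 4.53% to 19.2%), an interval that holds the 11.4% of all genes. The large subunit gene rpl-34 had a peak with 18.3 and 34.6, and rpl-10 with 14.7 and 30.5. The small subunit genes rps-25 and rps-18 had 18.9 and 24.9, and 20.8 and 26.9. All 4 ranked higher in replicate 2 relative to its list. At rpl-3 and rpl-7, named after their values were seen, a member lay at −897 bp and −870 bp from the start beside a thresholded peak closer to the start. Among translation factors, 11 of 43 (25.6%, 13.5% to 41.2%) had a member and 17 a thresholded peak. They included the release factor gene erfa-3 with 27.1 and 26.97, the eIF2B subunit genes eif-2Bepsilon with 19.4 and 25.3 and eif-2Bgamma with 19.8 and 25.02, and the eIF3 subunit gene eif-3.I with 14.2 and 27.4.

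Other housekeeping complexes had both kinds in similar number. A member was found at 10 of 33 proteasome genes (30.3%, 15.6% to 48.7%) and a thresholded peak at 11, with no gene in common. Over all genes with a member the overlap was also small, at 122 of 2285 (5.34%). The regulatory particle gene rpn-12, which shares its peak with the ubiquitin receptor gene rad-23, had 15.5 and 38.7, and rpn-13 had 13.6 and 32.6. The core particle gene pbs-7 had 13.2 and 31.1, while pas-1 had 25.8 and 12.8. Splicing factor genes had a member in 10 of 36 (27.8%, 14.2% to 45.2%) and a thresholded peak in 15. The peak of hrpf-2 had 16.5 and 35.9, that of sap-140 had 24.8 and 34.0, that of the SR protein gene rsp-3 had 33.4 and 16.1, and that of prp-18 had 22.8 and 22.2. The replicates thus differed in both directions within these families.

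Energy and proton pump genes were similar. Of the respiratory chain and ATP synthase genes, 10 of 41 (24.4%, 12.4% to 40.3%) had a member and 13 a thresholded peak. Values were 29.6 and 22.8 at ucr-1 of complex III, 20.2 and 19.1 at cox-6A of complex IV, 20.2 and 18.3 at nuo-2 of complex I, and 25.1 and 19.2 at cox-10, an assembly factor of complex IV. Relative to the length of the lists, ucr-1, nuo-2 and cox-10 ranked higher in replicate 1 and cox-6A in replicate 2. Of the vacuolar ATPase genes, which acidify organelles, 6 of 22 (27.3%, 10.7% to 50.2%) had a member and 5 a thresholded peak, and the interval holds the 11.4%. The gene unc-32 had 18.002 and 36.7, vha-14 had 29.2 and 16.5, vha-9 had 22.1 and 25.2, and vha-16 had 21.4 and 24.1. Chaperone genes had a member in 10 of 61 (16.4%, 8.15% to 28.1%), again with the 11.4% inside the interval, and a thresholded peak in 22. They included the J-domain co-chaperone genes dnj-1 with 23.7 and 25.7, dnj-29 with 25.4 and 23.5 and dnj-5 with 32.3 and 11.2. The small heat shock genes hsp-16.41 and hsp-16.2, which face away from each other, shared a peak with 16.5 and 24.96.

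Genes of NHR-11's own family had weaker peaks more often than thresholded ones. A member lay in the windows of 46 of 274 nuclear hormone receptor genes (16.8%, 12.6% to 21.8%) and a thresholded peak in 20 (7.30%, 4.52% to 11.05%), with 1 gene in both. That gene, named after its values were seen, was nhr-49, a regulator of fat metabolism. Both kinds were at 5.34% of all genes with a member. The first interval lies above the 11.4% of all genes, and the second holds the 8.28%. The strongest were at nhr-50 with 18.7 and 36.9, nhr-104 with 28.3 and 27.4, nhr-64 with 21.8 and 28.6, and nhr-173 with 26.2 and 29.4. The first 3 of these summits lay 33, 139 and 52 bp downstream of the start, and 8 of the 46 genes had their strongest member at or downstream of it. The receptor genes nhr-25 and nhr-23, which act in moulting and epidermis, had 21.5 and 18.6, and 20.3 and 10.4.

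Fatty acid metabolism genes had a member in 20 of 90 (22.2%, 14.1% to 32.2%) and a thresholded peak in 7 (7.78%, 3.18% to 15.4%), with none in common. Among all genes with a member, 5.34% had both kinds. The lipid-binding protein gene lbp-9 had 31.4 and 23.9, the acyl-CoA synthetase genes acs-4 and acs-19 had 22.2 and 28.6, and 29.3 and 28.5, and the elongase gene elo-6 had 20.6 and 25.3. Detoxification genes had a member in 29 of 185 (15.7%, 10.8% to 21.7%) and a thresholded peak in 6 (3.24%, 1.20% to 6.93%). The first interval holds the 11.4% of all genes. A member with signal at or above the median of the regions below the threshold lay at 19 detoxification genes. Of all 19973 genes, 1813 had one at that setting, in place of 2285. The P450 genes cyp-33B1 and cyp-35A2 had 22.6 and 25.6, and 16.3 and 23.8. The glutathione transferase gene gst-36 had 18.4 and 23.4, and the glucuronosyltransferase gene ugt-58 had 24.6 and 15.4. In 10 of these 29 genes the strongest member lay at or downstream of the start.

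Large families linked to the environment, the cuticle or defence were at or below the background for both kinds of peak. Chemoreceptor genes, expressed mainly in sensory neurons, had a member in 82 of 1309 (6.26%, 5.01% to 7.72%) and a thresholded peak in 11 (0.840%). The strongest were srh-89 with 21.9 and 25.4, srh-15 with 31.0 and 18.6, sri-19 with 24.6 and 23.9, and srg-15 with 18.7 and 31.5. C-type lectin genes had a member in 6 of 240 (2.50%, 0.923% to 5.36%) and F-box A genes in 8 of 170 (4.71%, 2.05% to 9.06%). The lectin genes clec-126, clec-140, clec-115 and clec-264 had pooled signals of 49.8, 48.2, 40.3 and 30.4, and fbxa-63, fbxa-37, fbxa-83 and fbxa-84 had 44.5, 44.4, 41.7 and 40.9. When replicate 1 was not required, 20 F-box A genes had one in place of 8, and 3063 of all 19973 genes in place of 2285. Cuticle collagen genes had a member in 16 of 174 (9.20%, 5.35% to 14.5%) and a thresholded peak in 4. Neighbouring collagen genes shared the strongest of these, col-159 and col-160 with 29.4 and 19.7, and col-3 and col-117 with 24.3 and 24.2. None of 31 major sperm protein genes had a member, for which the interval ends at 11.2%, below the 11.4% of all genes by a small margin.

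Developmental regulators stood near the background for weaker peaks. Homeobox genes had a member in 7 of 90 (7.78%, 3.18% to 15.4%), or in 12 when replicate 2 was not required. At that setting 2820 of all 19973 genes had one, in place of 2285. The Hox gene mab-5 had 16.1 and 26.8, ceh-54 had 16.1 and 17.3, ceh-99 had 17.7 and 16.5, and ceh-23 had 15.4 and 15.6. Of the bHLH and bZIP factor genes 7 of 62 (11.3%, 4.66% to 21.9%) had one, with cebp-1 at 26.01 and 27.9 and atf-7 at 21.1 and 20.5. The partner genes mml-1 and mxl-2 of the Myc-like network had 23.2 and 12.6, and 15.8 and 20.97. Wnt genes had a member in 3 of 27 (11.1%), which were the ligand gene cwn-1 with 27.6 and 19.7, the beta-catenin gene sys-1 with 15.8 and 18.7 and the Frizzled gene cfz-2 with 17.7 and 10.6.

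Of 39 insulin-like peptide genes, the ligands of the insulin receptor, 6 had a member (15.4%, 5.86% to 30.5%), or 2 with the narrower window of 500 bp upstream to 100 bp downstream. With that window 1592 of all 19973 genes had one, in place of 2285. The strongest of the 6 were ins-35 with 23.1 and 22.9, ins-3 with 20.4 and 18.9, ins-14 with 16.3 and 36.4 and ins-18 with 24.2 and 20.9. Of 15 pathway genes 4 had one (26.7%, 7.79% to 55.1%), or 2 with that window. Both intervals hold the 11.4% of all genes. They were the 14-3-3 genes par-5 with 18.4 and 22.5 and ftt-2 with 29.1 and 13.1, the phosphatase regulator gene smk-1 with 15.6 and 21.5, and daf-16, the FOXO factor, with 16.3 and 18.3. Heterochronic genes, which time larval stages, had a member in 2 of 15 and a thresholded peak in 6. Both members lay beside a thresholded summit. That of lin-46, 245 bp away, had 30.1 and 33.0, and that of lin-14, 216 bp away, had 22.5 and 55.8. The thresholded peak of lin-46 had the same replicate 1 value, 30.1, so that value is not the member's alone. Among members whose interval overlapped no thresholded interval, none lay at a heterochronic gene. Histone genes had a member in 4 of 72 (5.56%, 1.53% to 13.6%), with his-72 at 17.006 and 21.99, his-37 at 15.03 and 14.4, and his-61 and his-62 sharing a peak with 12.4 and 13.5.

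Muscle genes had a member in 14 of 55 (25.5%, 14.7% to 39.0%) and a thresholded peak in 16. Either kind was at 27 of them (49.1%), against 3817 of all 19973 genes. Several housekeeping lists had a higher share with either kind, such as splicing factors with 63.9%. The troponin I gene unc-27 had 34.0 and 21.2, the paramyosin gene unc-15 had 28.04 and 23.8, the titin gene ttn-1 had 26.1 and 20.3, and unc-96 of the sarcomere M-line had 24.1 and 17.4. All 4 ranked higher in replicate 1 relative to its list. Neuron genes had a member in 10 of 47 (21.3%, 10.7% to 35.7%), an interval that holds the 11.4%, and a thresholded peak in 7, with all 10 within 500 bp upstream. The neuronal gene rgef-1 had 22.4 and 30.8, the tubulin gene tba-1, whose peak also counts for cox-5B, had 19.03 and 16.9, ida-1 of dense core vesicles had 16.8 and 19.8, and the CaM kinase gene unc-43 had 17.7 and 14.8.

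The other marker lists are short, and their intervals overlap each other and those of the muscle and neuron lists. Intestine markers had 2 of 20 (10%, 1.23% to 31.7%), the protease gene asp-1 with 28.8 and 24.2 and the GATA factor gene elt-7 with 14.7 and 9.92. Hypodermis markers had 3 of 14 (21.4%, 4.66% to 50.8%), which were nhr-25, nhr-23 and noah-1 of the apical matrix with 12.6 and 13.6. Germline markers had 1 of 23, car-1 with 17.6 and 18.5, and pharynx markers 0 of 19, for which the interval reaches 17.6%. Intestine, hypodermis and pharynx markers had no thresholded peak, and germline markers had 1.

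**Figure D5:**
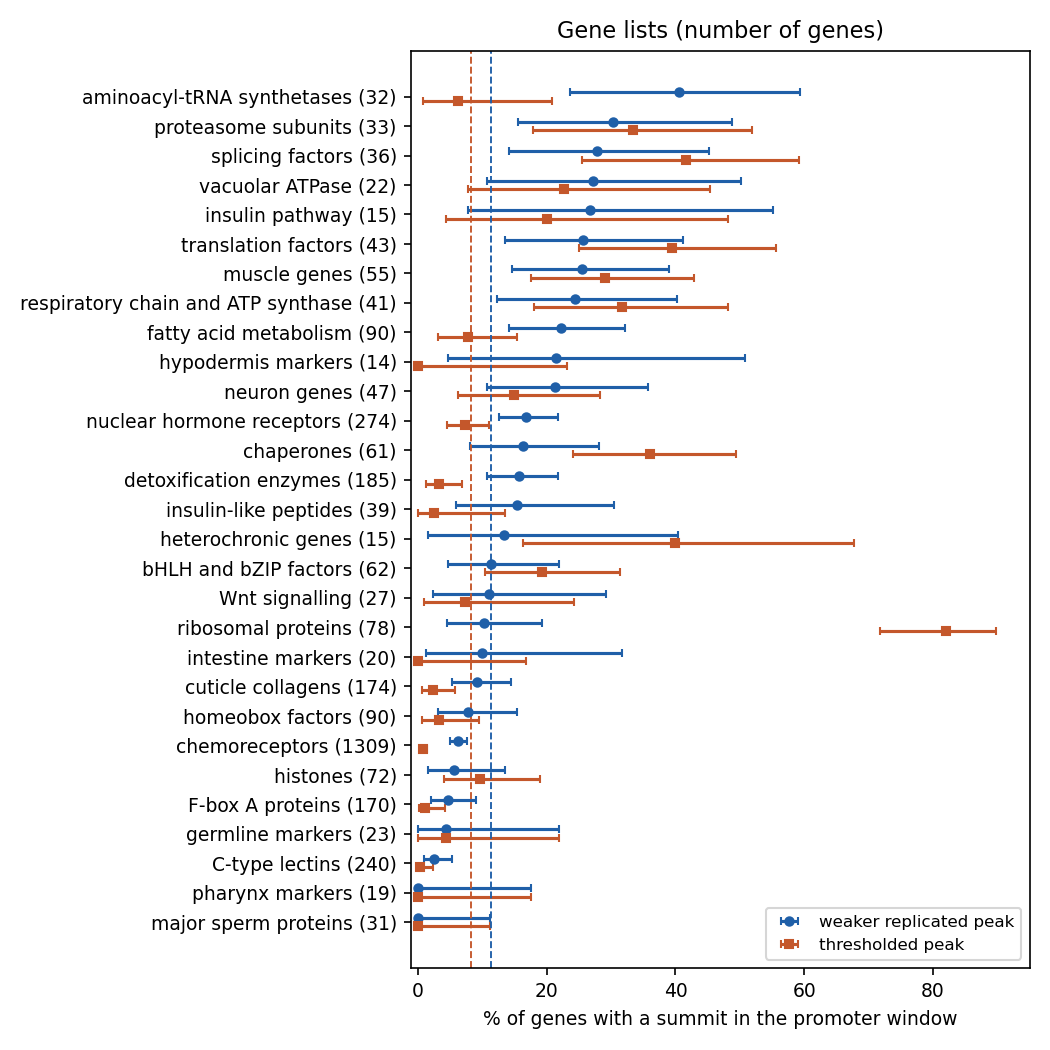
Share of genes in each of 29 lists with a weaker replicated peak (blue circles) or a thresholded peak (orange squares) in the promoter window (x axis, %), with 95% Clopper-Pearson intervals and the share among all protein-coding genes as dashed lines at 11.4% and 8.28%. Aminoacyl-tRNA synthetase genes stand at 40.6% for weaker peaks, and ribosomal protein genes stand far right for thresholded ones.

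Some members also lay close to noncoding RNA genes. A tRNA, snoRNA, snRNA, microRNA or lincRNA gene lay within 500 bp of 74 members (3.74%, 2.95% to 4.67%), of 5.85% (4.63% to 7.26%) of the thresholded and of 2.98% (2.13% to 4.05%) of the non-replicated promoter peaks. By class, 30 members were near a tRNA gene, 18 near a snoRNA gene, 15 near a lincRNA gene, 9 near a microRNA gene and 5 near an snRNA gene. The snoRNA share was 0.910% (0.540% to 1.43%) in the members and 2.46% (1.69% to 3.46%) in the thresholded. The next genes were chosen for naming after their values were seen. The lincRNA gene linc-48 had 2 members beside it, with pooled signals of 54.2 and 39.7. The snoRNA gene R11A5.8 lay 85 bp from the member of nud-2. A summit inside the annotated record of the microRNA gene let-7, a timer of larval development, had 21.2 in replicate 1 and 14.9985 in replicate 2.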

How the data were processed

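Peak lists from eGFP-NHR-11 ChIP-seq of 2 replicates were used in build ce11. Per the texts deposited with the files, replicate lists were made for IDR from each replicate's alignments, the pooled list from both together, and the thresholded list from these 3. Which aligner, caller and IDR cut-off were applied was not given in the sources used here. The authors' deposited signal value (a score on a scale that is not stated) ranks peaks within a list, and the deposited −log10 q values are the authors' own. Summits are the deposited offsets, given counting from 1.

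Gene starts came from Ensembl release 115 (WBcel235, the sequence of ce11), 1 start per gene record, on 6 chromosomes. No region ran past a chromosome's end. Where an interval held several summits of a replicate (98 members), the strongest gave the value. A summit counted for every gene whose window held it, so 1 peak can serve several genes. Symbols are those of that annotation, and that of let-7 came from RefSeq's table for WBcel235, whose record has the same ends. Sequence was read from the RefSeq WBcel235 genome, and none from chromosome I is shown. Thresholded promoter peaks were those with a summit in the same window.

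Python 3.11.15, numpy 2.4.6, pandas 2.3.3 and SciPy 1.17.1 were used, with figures by Matplotlib 3.10.9, and the matching steps were tested on simulated data. The members, the 29 gene lists and the 22 motifs were chosen with earlier results of these data known, so counts are descriptions and no test was run. The genes named were those of the 20 strongest members, the 3 on each side of the threshold, the 3 weakest, the 5 most uneven between replicates each way, up to 4 per list, nhr-11, unc-119 and any gene with 3 or more members. The labels give the replicates as separate biological samples, and only the spread between 2 can be seen. Alternatives changed the window, the starts, the replicate match, the signal, the sequence width, the distances and the build.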

Additional observations from a re-analysis of the deposited data

How the results depend on the processing

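Of 521 alternative values, 429 stayed within 1.5 times a count or inside the interval of a share or median, and 92 moved out of it. The share of weaker replicated peaks in promoters was 23.2% with a window of 500 bp upstream to 100 bp downstream, 47.7% with 2000 bp upstream to 500 bp downstream, 35.3% with the strongest replicate regions only, 35.6% for signal at or above the median of the regions below the threshold, 39.3% with the starts of all transcripts, and 30.9% to 31.5% when the summit of a single replicate was asked for. The number of genes rose to 3471 with the wider window. Among the members at or above their median pooled signal 65.7% lay within 500 bp upstream, 20% lay in windows on both strands, 66 genes had both kinds of peak, median GC content was 41.6%, and 4.85% were near a noncoding RNA gene. Windows on both strands took 15.6% with the starts of all transcripts. GC content was 38.3% in windows reaching 100 bp to either side and 38.6% to 39.6% with either replicate alone asked for. Within 500 bp a thresholded summit was near 2.83%, and within 100 bp a noncoding gene was near 2.37%. An alternative chosen after seeing the data kept the members whose interval overlapped no thresholded interval: a thresholded summit was then within 1000 bp of 4.99%, and 63 genes had both kinds of peak. With either replicate alone asked for, members numbered 2511 to 2717 and genes 2820 to 3063. Counting each peak for its nearest start alone left 1900 of all 19973 genes with a member, in place of 2285. Among these were 5 proteasome, 5 respiratory chain, 7 translation factor, 4 ribosomal protein and 10 collagen genes. With the strongest replicate regions only, 1655 of all genes had one, among them 6 translation factor, 9 collagen and 42 chemoreceptor genes. The causes were not tested. No paired analysis was possible because there is a single group. The unknown depth limits what the absence of a peak can show.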

Other observations

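GAGAGA was in 17.8% (14.4% to 21.6%) of the members whose summit lay 500 to 1000 bp upstream, 17.01% (14.9% to 19.2%) of those within 500 bp upstream and 13.2% (9.54% to 17.6%) of those at or downstream of the start, so the intervals overlapped. CTGCGTC was in 4.94%, 5.75% and 5.07%, also with overlapping intervals. TTTTCAG, the form of a splice acceptor, was in 6.22% (4.21% to 8.82%), 6.98% (5.62% to 8.56%) and 12.5% (8.96% to 16.8%), with the last interval above the others. CACGTG was in 2.58%, 2.96% and 5.41%, with overlapping intervals. Median pooled signal was 34.2, 35.4 and 32.2 in the same order.

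Chromosome V holds 167 of the 274 nuclear hormone receptor genes. A member was in the window of 27 of these (16.2%, 10.9% to 22.6%) and of 19 of the 107 on other chromosomes (17.8%, 11.04% to 26.3%). Detoxification genes on chromosome V had a member in 17 of 92 (18.5%) and a thresholded peak in 1, and those on other chromosomes had 12 of 93 (12.9%) and 5.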
